A study of Mus musculus with 3 samples.

Results

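The 9 genes described here code for kinases of the mitogen-activated protein (MAP) kinase cascade in mouse macrophages. They are the MAP kinase kinases Map2k1, Map2k3 and Map2k6, the MAP kinases Mapk3, Mapk8, Mapk9 and Mapk14, and the MAP kinase-activated kinases Mapkapk2 and Mapkapk3. They were taken by gene symbol from 55536 annotated genes, of which 22028 were protein-coding. The cells were primary C57BL/6J macrophages grown from bone marrow, and total RNA of their chromatin fraction was sequenced in 3 libraries of 1 group. All cells had received Lipid A, the membrane anchor of lipopolysaccharide, which Tlr4 senses, at 100 ng/ml for 12 h, had then been kept without it for 12 h, and had received it again at 100 ng/ml for 20 min. Cells at other points of this schedule were not analysed here, so no value below is an effect of Lipid A. The labels call the libraries biological replicates 1, 2 and 3 but give them 1 donor entry, so the spread between them may be technical. With 1 group there was no comparison to test, and the values are levels with their spread over libraries.

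In a MAP kinase cascade an upstream kinase (a MAP3K) phosphorylates a MAP kinase kinase (a MAP2K), which in turn phosphorylates a MAP kinase. The parallel arms end in the ERK, JNK and p38 kinases, and the p38 arm passes the signal on to Mapkapk2 and Mapkapk3. In macrophages the pathway is known for carrying the signal from Tlr4 to transcription factors and to proteins that control the stability of cytokine mRNAs. Activation is by phosphorylation, which RNA sequencing does not measure. RNA from the chromatin fraction holds transcripts that are still being made or spliced, so a level here joins new and unspliced RNA with finished RNA that stays on chromatin.

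Of the 9 genes, 3 have pairs of coding exons of equal length that replace each other in annotated transcripts, and these exons are shown because the share of each is among the measurements below. Each pair is printed 5′ to 3′ on the transcribed strand, from GENCODE M21 transcripts on mm10, and capitals mark the bases at which the 2 exons of a gene differ. The Mapk14 exons lie at chr17:28737011-28737090 (upstream) and chr17:28740680-28740759 (downstream), on the plus strand. The Mapk9 exons lie at chr11:49873836-49873907 and chr11:49874264-49874335, on the plus strand. The Mapk8 exons lie at chr14:33390673-33390744 (upstream) and chr14:33390242-33390313 (downstream), on the minus strand.
Mapk14 upstream exon: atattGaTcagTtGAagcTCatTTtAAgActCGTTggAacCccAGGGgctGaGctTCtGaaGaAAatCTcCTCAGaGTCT
Mapk14 downstream exon: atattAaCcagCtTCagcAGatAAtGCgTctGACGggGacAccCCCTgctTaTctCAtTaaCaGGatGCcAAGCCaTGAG
Mapk9 upstream exon: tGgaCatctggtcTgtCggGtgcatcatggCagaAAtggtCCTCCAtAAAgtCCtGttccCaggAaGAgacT
Mapk9 downstream exon: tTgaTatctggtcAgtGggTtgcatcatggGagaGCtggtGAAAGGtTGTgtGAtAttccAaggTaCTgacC
Mapk8 upstream exon: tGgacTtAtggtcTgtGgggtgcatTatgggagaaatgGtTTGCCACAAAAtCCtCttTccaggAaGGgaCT
Mapk8 downstream exon: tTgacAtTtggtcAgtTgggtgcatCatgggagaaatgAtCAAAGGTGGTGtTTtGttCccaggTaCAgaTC

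The Mapk14 exons are identical at 39 of 80 bases. The Mapk9 exons are identical at 47 of 72 bases and the Mapk8 exons at 45 of 72. Between the genes, the upstream exons of Mapk9 and Mapk8 are identical at 59 of 72 bases and the downstream exons at 57 of 72, so each exon is closer to its counterpart in the other gene than to its partner. All 9 genes had whole-number counts in every library of the gene table, as deposited to 2 decimals, as did 69.7% of the 9540 protein-coding genes that averaged 50 counts or more. No fraction of a read shared with another gene appeared in their gene counts.

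The libraries held 13953780, 24222661 and 16571228 expected counts (estimated reads per gene) for replicates 1, 2 and 3. Starting RNA was 1 µg, 250 ng and 500 ng in the same order, and the effect of that amount cannot be told apart from the replicate. Of 10 macrophage markers, 9 reached 1 TPM in every library, and their summed level ran from 884 to 1099 TPM. TPM is a relative transcript level, scaled for length within a library. The summed levels of 7 marker lists for other cells ran from 0.06 to 12.4 TPM. These lists were for T and NK cells, B cells, neutrophils, dendritic cells, stroma and endothelium, erythroid cells, and mast cells and basophils. The B cell, dendritic cell, and stroma and endothelium lists each had 1 gene that reached 1 TPM in every library, and the other lists had 0. S100a8, S100a9, Ly6g and Cpa3 were among the markers listed at 0 in every library.

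Of the 9 genes, 8 had at least 1 TPM in every library, as did 45.2% of protein-coding genes. At 5 TPM the count was again 8 (30.9% of protein-coding genes), and at 10 TPM it was 6 (21.8%). The genes were chosen with earlier results of these data known, so these counts are descriptive. In bulk RNA, fewer cells that express a gene and less RNA per cell cannot be told apart. Mapk14 was highest and Map2k6 lowest, and the median of the 9 genes was 24.3 TPM. The order from the top was Mapk14, Mapk9, Mapkapk3, Map2k1, Mapkapk2, Mapk8, Map2k3, Mapk3 and Map2k6. Among the 8 pairs of neighbours in this order, the library ranges were separate only for Mapk3 above Map2k6, with a mean ratio of 9.36. Map2k1 above Mapkapk2 and Mapkapk2 above Mapk8 held in 3 of 3 libraries although their ranges overlapped, but Map2k1 above Mapkapk2 held in 0 of 3 in the second table, and the other 5 neighbouring pairs kept their order in 2 of 3.

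**Figure D1:**
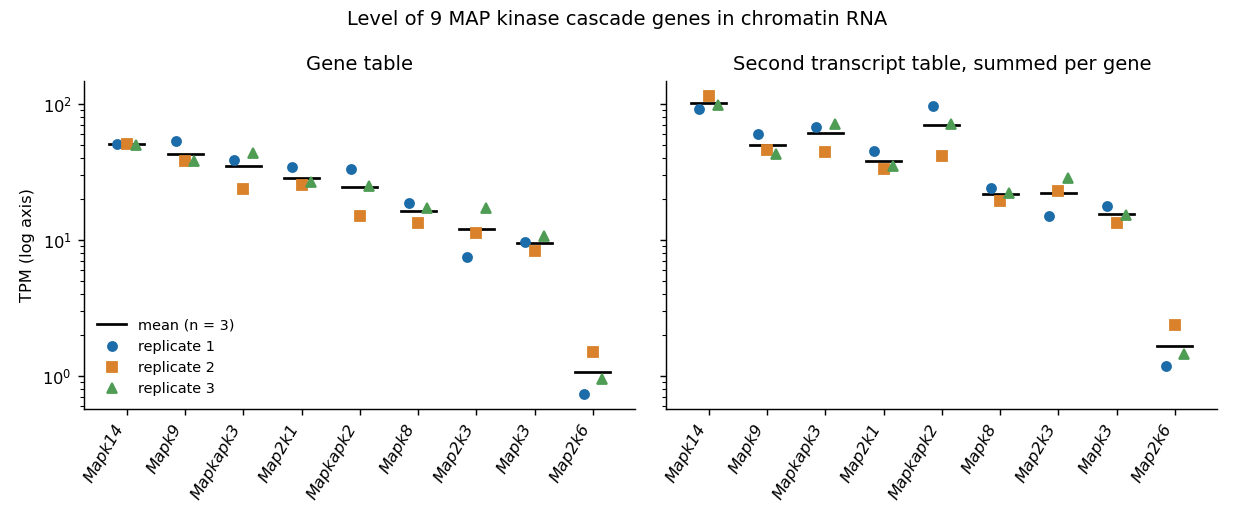
TPM of the 9 genes (log axis) in replicates 1, 2 and 3 (circles, squares, triangles) with the mean of 3 libraries (bar), in the gene table (left) and in the second transcript table summed per gene (right). Mapk14 has the highest mean and Map2k6 the lowest in both, while Mapkapk2 moves from the fifth place at 24.3 TPM to the second at 69.3 TPM.

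Each library also came with a second transcript table, estimated separately by the authors, which was summed per gene as a check of every level. It held the same first and last gene but moved Mapkapk2 from the fifth place to the second. Its levels were 1.15 times (Mapk9) to 2.85 times (Mapkapk2) those of the gene table.

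Of the MAP kinase kinases, Map2k1 (MEK1; 9:64185770-64253631, minus strand), which phosphorylates the ERK kinases, was the highest of the 3. It had 34.1, 25.3 and 26.4 TPM in replicates 1, 2 and 3, a mean of 28.6 ± 4.81 (SD, n = 3). Replicate 1 was high and the other libraries were close to each other. Without scaling for length it had 33.1, 31.3 and 28.6 CPM (counts scaled to library size, with TMM factors), a range of 1.16-fold. Its close relative Map2k2 (MEK2) had 43.6 ± 1.96 TPM and stood above Map2k1 in 3 of 3 libraries, with a Map2k1 to Map2k2 ratio of 0.651. The second table gave a ratio of 0.611.

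Map2k3 and Map2k6 (MKK3 and MKK6) are the dedicated activators of the p38 kinases, and they differed from each other by a wider ratio than the JNK pair or the Mapkapk pair among the members. Map2k3 (11:60932033-60952811, plus strand) had 7.49, 11.2 and 17.2 TPM, a mean of 12.0 ± 4.90 (SD, n = 3). Replicate 1 was the lowest and replicate 3 the highest. In CPM it had 7.66, 13.2 and 14.2, so that replicate 1 stood apart below the other 2, with a range of 1.86-fold. Replicate 1 was the lowest library for Map2k3 under all 7 scalings tried (TMM with 3 prior counts, DESeq2 size factors, total counts, log2(TPM + 1) and counts of the second table), with ranges from 1.78-fold to 2.14-fold.

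Map2k6 (11:110399122-110525522, plus strand) had 0.73, 1.49 and 0.95 TPM, a mean of 1.06 ± 0.39 (SD, n = 3). These levels rested on 16, 71 and 23 counts. As CPM of annotated genes without TMM factors this was 1.18 (95% Wilson interval 0.724 to 1.91), 2.95 (2.34 to 3.71) and 1.39 (0.928 to 2.09), intervals that cover counting error only. Replicate 2 was the high library, its interval lay above those of the other 2, and it stayed the highest under all 7 scalings. Map2k3 exceeded Map2k6 10.3-fold, 7.53-fold and 18.1-fold in replicates 1, 2 and 3, and the second table gave a mean of 13.5-fold. Map2k6 made up 0.702% and Map2k3 7.69% of the TPM of the 7 MAP kinase kinases. For comparison, Map2k4 and Map2k7, the activators of the JNK arm, had 16.6 ± 1.48 and 20.1 ± 4.19 TPM, and 60.6 and 22.4 TPM in the second table.

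Of the MAP kinases, Mapk3 (ERK1; 7:126759601-126765819, plus strand) had 9.69, 8.23 and 10.6 TPM, a mean of 9.52 ± 1.21 (SD, n = 3). The libraries lay close together, with CPM of 9.66, 9.47 and 11.2. Mapk3 held 3.79 ± 0.443% of the TPM of 14 terminal MAP kinases, and 4.45% in the second table. On the ERK arm the MAP kinase kinase Map2k1 stood above its substrate Mapk3 in 3 of 3 libraries, with a mean ratio of 2.99.

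Mapk8 and Mapk9 (JNK1 and JNK2), which phosphorylate Jun, were both present. Mapk9 (11:49846751-49886421, plus strand) had 52.9, 37.7 and 38.2 TPM, a mean of 42.9 ± 8.64 (SD, n = 3). Mapk8 (14:33377898-33447158, minus strand) had 18.7, 13.2 and 17.2 TPM, a mean of 16.3 ± 2.84 (SD, n = 3). On the TPM scale replicate 1 was the highest for both genes, and the ranges of the 2 genes did not overlap. Mapk9 exceeded Mapk8 2.83-fold, 2.86-fold and 2.22-fold, and the second table gave a mean of 2.25-fold. Mapk9 made up 72.2 ± 2.96% of the TPM of the 3 JNK genes, since Mapk10 (JNK3) had 0.08 TPM.

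Mapk14 (p38α; 17:28691329-28748406, plus strand), the p38 kinase that phosphorylates Mapkapk2 and Mapkapk3, was the highest of the 9 genes. It had 50.9, 50.8 and 49.6 TPM, a mean of 50.5 ± 0.735 (SD, n = 3), and lay between the 93.1 and 95.2 percentile of protein-coding genes. It also had the smallest spread of the 9 in CPM of the gene table, with 79.6, 87.6 and 89.2 and an SD of 0.09 on the log2 scale. The evenness did not extend to the second table, which gave 92.0, 114 and 98.0 TPM. Mapk14 made up 95.8 ± 1.95% of the TPM of the 4 p38 genes, and 94.9% in the second table. Mapk11 (p38β) had 1.59 ± 0.81 TPM, Mapk12 (p38γ) 0.57 and Mapk13 (p38δ) 0.03, with 1.40, 3.91 and 0.03 in the second table. Mapk14 exceeded Mapk11 34.4-fold in the gene table and 76.2-fold in the second. Among the 14 terminal MAP kinases it held 20.3 ± 3.40% of the TPM.

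Of the kinases downstream of p38, Mapkapk3 (MK3; 9:107254927-107289877, minus strand) had 38.4, 23.8 and 43.2 TPM, a mean of 35.1 ± 10.1 (SD, n = 3). Mapkapk2 (MK2; 1:131053700-131097826, minus strand), known for keeping the tumour necrosis factor mRNA stable and translated, had 33.3, 15.0 and 24.7 TPM, a mean of 24.3 ± 9.18 (SD, n = 3). Replicate 2 was the lowest for both. In CPM Mapkapk2 had 60.2, 37.1 and 49.1, a range of 1.62-fold, with replicate 1 the highest and replicate 2 the lowest under all 7 scalings. Mapkapk3 had 40.9, 34.3 and 45.0 CPM, a range of 1.31-fold. Mapkapk3 exceeded Mapkapk2 in 3 of 3 libraries of the gene table with a mean ratio of 1.47, but the second table gave 0.917, so the order of the pair depended on the table. Mapkapk5, the third kinase of this family, had 41.1 ± 3.82 TPM.

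The members differed between libraries about as much as protein-coding genes did. The SD of log2 CPM ran from 0.09 (Mapk14) to 0.69 (Map2k6) with a median of 0.19, and the median of 9540 protein-coding genes was 0.19, with quartiles of 0.11 and 0.30. Map2k6 did not reach the mean of 50 counts that these genes had. Of the other 8, 2 differed by more than 1.5-fold between the highest and lowest library, Mapkapk2 and Map2k3, against 24.1% of protein-coding genes. In log2 CPM with TMM factors, replicate 3 was highest for 5 of the 8 (28.3% of protein-coding genes), replicate 1 for 3 (32.1%) and replicate 2 for 0 (39.6%). Replicate 2 was lowest for 4 of the 8 (33.9%), replicate 1 for 2 (41.2%) and replicate 3 for 2 (24.9%). These counts depended on the scaling. Over the 7 scalings the highest library changed for Map2k3, Mapk8 and Mapk14, and the lowest for Map2k1, Mapk3, Mapk9 and Mapk14. In counts of the second table, replicate 2 was highest for Map2k3 and Mapk14. Mapkapk2 and Map2k3 did not share a pattern, since replicate 1 was the highest library for the first and the lowest for the second. On the TPM scale replicate 2 lay lower for genes in general: the median of these genes was -0.18 from the gene mean on the log2(TPM + 1) scale, against 0.02 for log2 CPM.

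**Figure D2:**
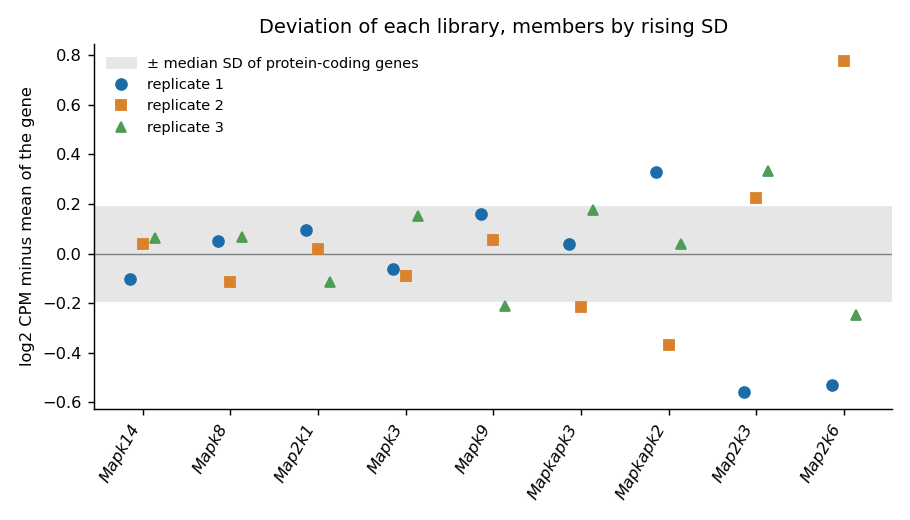
Deviation of each library (log2 CPM minus the gene's mean over 3 libraries; circles, squares and triangles are replicates 1, 2 and 3), genes ordered by rising SD. The grey band is plus and minus the median SD of protein-coding genes, 0.19. Replicate 1 lies at 0.33 for Mapkapk2 and at -0.56 for Map2k3, and replicate 2 at 0.78 for Map2k6.

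Genes whose library pattern was most like that of the least and the most variable member were sought among protein-coding genes with at least 10 TPM and 50 counts, by the root mean square difference of log2 deviations over the 3 libraries. For Mapk14 they were Snx27, Mapre1 and Appl1, with differences of 0.0015 to 0.0025, but 1510 of 5512 genes lay within 0.1. For Map2k6 they were Adpgk and Stab1 at 0.069 and Coro1a at 0.099, the 3 genes of 5513 within 0.1. A pattern over 3 libraries has little detail, and that of Map2k6 rests on at most 71 counts per library.

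The wider pathway was described by 10 lists of 120 genes, 9 of them the members. These lists were chosen with earlier results of these data known, so the counts below are descriptive and test nothing. Of the 120, 94 reached 1 TPM in every library, and of the 111 that were not members 86 did, against 45.2% of protein-coding genes. By tier, 18 of 21 MAP3K and RAF genes, 7 of 7 MAP4K genes, 6 of 7 MAP2K genes, 8 of 14 terminal MAP kinases and 10 of 11 downstream kinases did so. Map3k8 (Tpl2), the MAP3K that acts on Map2k1 downstream of Tlr4, was the highest MAP3K of the gene table at 114 ± 35.5 TPM, and Map3k21 was listed at 0. In the second table Map3k8 had 112 TPM and Map3k1, named after its values were seen, had 119. The highest downstream kinase was Mknk1, which phosphorylates the cap-binding factor eIF4E, at 126 ± 12.8 TPM, above all 9 members, and Rps6ka6 was listed at 0. The median TPM was 12.9 for the MAP3K and RAF list, 20.1 for the MAP2K list, 12.2 for the terminal kinases and 18.9 for the downstream kinases.

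Of the lists around the kinases, 12 of 16 scaffolds and adaptors reached 1 TPM in every library. Arrb2 (β-arrestin 2) was their highest at 323 ± 76.4 TPM, followed by Mapk8ip3, a JNK scaffold, at 179 ± 4.51. The counts were 8 of 12 for RAS genes and exchange factors, 13 of 15 for nuclear targets and 7 of 7 for RNA-binding targets of the p38 arm. Zfp36 (tristetraprolin), an mRNA-destabilising protein that Mapkapk2 phosphorylates, had 212, 64.3 and 185 TPM. The dual-specificity phosphatases, which inactivate MAP kinases, reached this level in 5 of 10. Dusp1 was their highest at 95.2, 40.8 and 137 TPM, and replicate 2 was low for both Dusp1 and Zfp36.

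In 6 of the members, part of the TPM lay on transcripts annotated as keeping introns. GENCODE gives 6 of the 9 genes at least 1 transcript of the retained-intron class, which keeps intron sequence between exons. In these 6 the class took a median of 45.6% of the gene's TPM. Over 4104 protein-coding genes of at least 10 TPM with such a transcript, the median was 49.0%. Mapk3, at 9.52 TPM, falls below that minimum, and the median of the other 5 members was the 60.1% of Map2k1. The share was 69.4 ± 3.49% for Mapk8, 64.6 ± 8.54% for Map2k3, 60.1 ± 3.54% for Map2k1, 31.1 ± 1.19% for Mapkapk3, 30.0 ± 4.10% for Mapk14 and 27.8 ± 5.97% for Mapk3 (SD, n = 3). For Map2k3 the share was 55.5%, 65.7% and 72.4% in replicates 1, 2 and 3, and 51.4%, 54.1% and 60.8% in the second table. Mapk3 had 25.9%, 34.5% and 23.0%, and 64.4%, 58.4% and 47.9% in the second table. The second table kept Mapk8 and Map2k3 above a share of 50%, at 59.4% and 55.4%, but put Map2k1 at 37.2% and Mapk3 at 56.9%.

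TPM is scaled by length, so that a short transcript takes a larger share of TPM than of counts. As a share of expected counts, the class held 4.59% for Mapk14, 5.30% for Mapk3, 25.1% for Map2k1, 58.3% for Mapkapk3 and 58.9% for Mapk8. For Map2k3 it held 34.4%, 37.1% and 42.6% in replicates 1, 2 and 3. In the first transcript table Mapk8 alone had over 50% of both TPM and counts on this class in every library. The leading transcript by mean TPM was of the retained-intron class in 3 of the 5 members that had such a transcript and at least 10 TPM, against 46.9% of 4104 genes. These were Map2k1-204 (46.8 ± 4.36% of the gene's TPM), Mapk14-207 (30.0 ± 4.10%) and Mapk8-211 (29.2 ± 2.43%). They did not lead in every library: Map2k1-201 led in replicate 3, and Mapk14-203 and Mapk8-207 led in replicate 1. Mapk8-211 is a single exon of 3529 bases, of which 3202 lie outside the exons of every protein-coding Mapk8 transcript. Mapk14-207 is 509 bases long with 169 such bases, and Map2k1-204 is 688 bases long with 518.

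The junctions at which these transcripts run from intron into coding exon are shown for 3 genes, since only RNA that has not been spliced there holds both sides. The 30 intron bases before the exon are in capitals and end in the AG of the acceptor site, and the 30 coding bases after it are in lower case. They lie at chr17:28741758-28741817 (plus strand), chr9:64187709-64187768 (minus strand) and chr11:60951128-60951187 (plus strand), from GENCODE M21 transcripts on mm10.
Mapk14-207 boundary: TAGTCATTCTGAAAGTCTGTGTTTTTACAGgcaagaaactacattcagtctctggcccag
Map2k1-204 boundary: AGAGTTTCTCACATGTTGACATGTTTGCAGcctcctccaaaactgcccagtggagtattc
Map2k3-204 boundary: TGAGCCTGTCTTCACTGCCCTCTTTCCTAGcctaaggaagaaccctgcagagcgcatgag

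Map2k3-204 had 1.34, 3.67 and 7.54 TPM in replicates 1, 2 and 3, from 6, 34 and 38 expected counts. Replicate 1 was its lowest library, as it was for the gene.

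**Figure D3:**
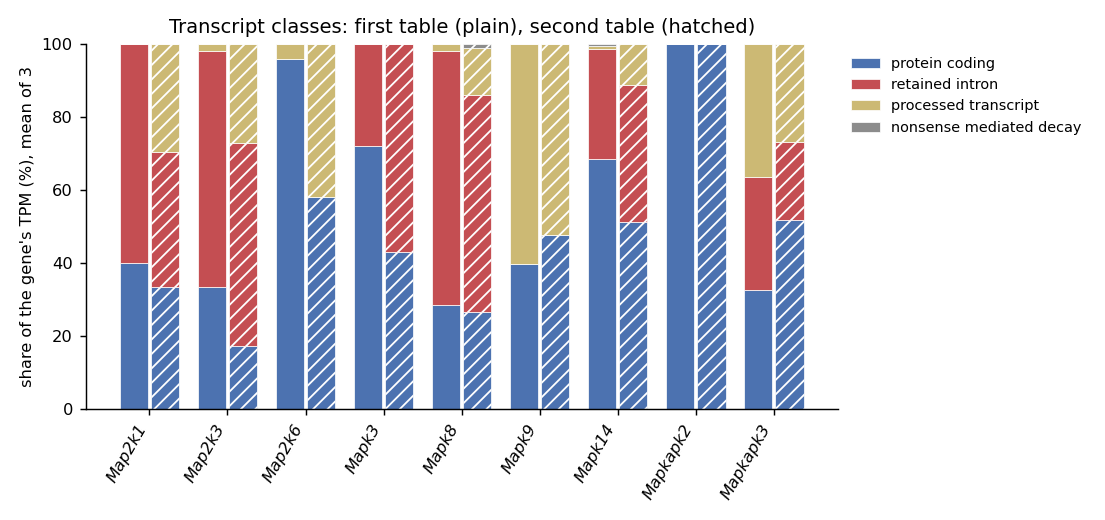
Share of each gene's TPM (%, mean of 3 libraries) on transcripts of each GENCODE class, in the first transcript table (plain bars) and the second (hatched bars). Retained-intron transcripts (red) hold 69.4% for Mapk8 and 64.6% for Map2k3 in the first table, and Mapk9 has none but 60.3% on processed transcripts (tan).

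Mapk9, Map2k6 and Mapkapk2 have no transcript of the retained-intron class. Mapk9 carried 60.3 ± 2.47% of its TPM on processed transcripts, which have no annotated coding frame, and 52.3% in the second table. Its leading transcript by TPM, Mapk9-206, held 39.4 ± 1.96% and led in every library of both tables. Of its 2192 bases, 1291 lie outside the coding transcripts' exons. As a share of expected counts, processed transcripts of Mapk9 held less, 38.8%, 39.7% and 35.4% in replicates 1, 2 and 3. By these counts the coding Mapk9-201 led in every library, with 631, 1101 and 683 against 478, 797 and 400 for Mapk9-206. In estimated counts of the second table, Mapk9-206 was the higher, with 616, 1105 and 536 against 395, 1002 and 525. Mapkapk2 has 2 coding transcripts, and the tables split their TPM in opposite ways. The full-length Mapkapk2-201 held 81.7 ± 3.56% in the first, and the short Mapkapk2-202 held 67.3 ± 1.90% in the second. In counts Mapkapk2-201 was the higher in both tables. In the second it had 1395, 1479 and 1432 estimated counts in replicates 1, 2 and 3, against 548, 513 and 499 for Mapkapk2-202. By mean TPM the tables named the same leading transcript for 4 of the 9 genes, Map2k6, Mapk14, Mapk8 and Mapk9. Splits between transcripts of 1 gene are estimates, and a share that differs between the tables is not settled here.

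The equal-length exon pairs printed above were compared by the TPM of the transcripts that hold each exon. For Mapk14 the upstream exon held 94.0%, 93.7% and 91.6% of that TPM in replicates 1, 2 and 3, and 88.1 ± 2.24% (SD, n = 3) in the second table. For Mapk8 the upstream exon held 75.0%, 73.0% and 67.8%, and 64.5 ± 9.21% in the second table. Among the transcripts that hold either exon, those with the upstream exon thus had the larger share for Mapk14 and Mapk8 in each library of both tables. These shares leave out transcripts without either exon. For Mapk8 the upstream form had 3.81, 2.7 and 3.56 TPM in replicates 1, 2 and 3, of 18.7, 13.2 and 17.2 TPM for the gene. For Mapk9 the upstream exon held 40.9%, 22.7% and 24.6% in the first table but 73.5%, 50.6% and 55.9% in the second. The majority form of Mapk9 by TPM was thus opposite in the tables, though narrowly in replicate 2. As a share of counts the upstream exon held 35.0%, 23.8% and 23.3% in the first table. In the second its count share was 64.8%, 42.7% and 50.1%, so by counts the reversal did not hold in replicate 2. Replicate 1 was the highest for the upstream Mapk9 exon in both tables.

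The last exon of Mapk9 begins at either of 2 acceptor sites, at positions 49883142 and 49883147 of chromosome 11, and the choice changes the reading frame. In the transcripts Mapk9-201 to Mapk9-204 the longer coding sequence, 1269 bases, goes with the downstream site and the shorter, 1143 bases, with the upstream site. The junctions are printed with the last 15 bases of the exon before and the first bases of the last exon, and capitals mark the bases that only the upstream site adds.
Mapk9 upstream acceptor: aagaccagccttcagCACAGatgcagcag
Mapk9 downstream acceptor: aagaccagccttcagatgcagcag

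The downstream acceptor held 68.9%, 66.2% and 70.1% of the TPM on both forms, and 64.2 ± 3.56% (SD, n = 3) in the second table. Here both tables had the downstream form in the majority in all 3 libraries.

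**Figure D4:**
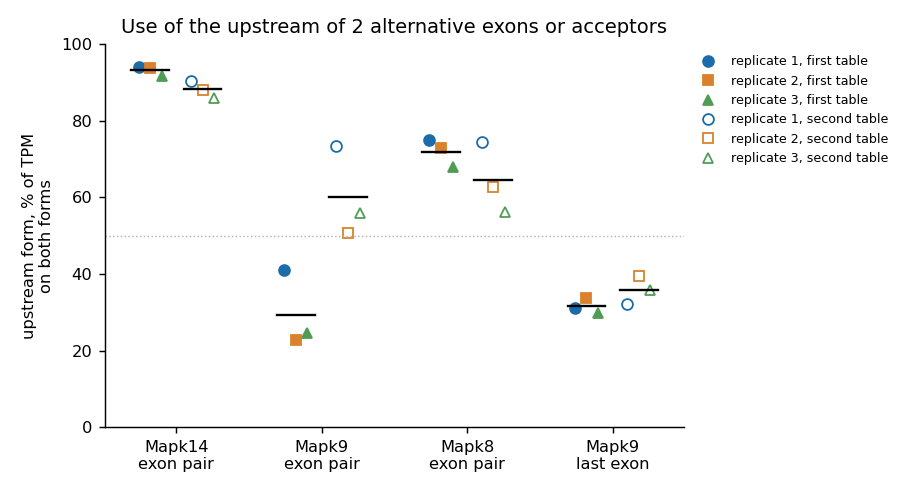
Share (%) of the TPM on both forms that fell on the upstream exon or acceptor, in replicates 1, 2 and 3 (circles, squares, triangles) of the first table (filled) and the second (open), with means as bars and 50% dotted. Mapk14 and Mapk8 lie above 50% in both tables, the Mapk9 last exon lies below it in both, and the Mapk9 exon pair lies below it in the first and above it in the second.

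Of the 9 genes, 4 have other annotated genes inside their bounds, and none of these overlaps a member's exon. The largest signal in the gene table was Gm37084, an unclassified locus of 5898 bases at 1:131086252-131092149, inside the first intron of Mapkapk2 and on the same strand. It had 7469, 6979 and 6119 counts, against 843, 877 and 797 for Mapkapk2, which is 8.86, 7.96 and 7.68 times as many. Its level was 112, 47.3 and 76.0 TPM, highest in replicate 1 and lowest in replicate 2, as for Mapkapk2. In CPM the range was 1.81-fold for Gm37084 and 1.62-fold for Mapkapk2. Whether these reads belong to Mapkapk2 precursor RNA was not tested.

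**Figure D5:**
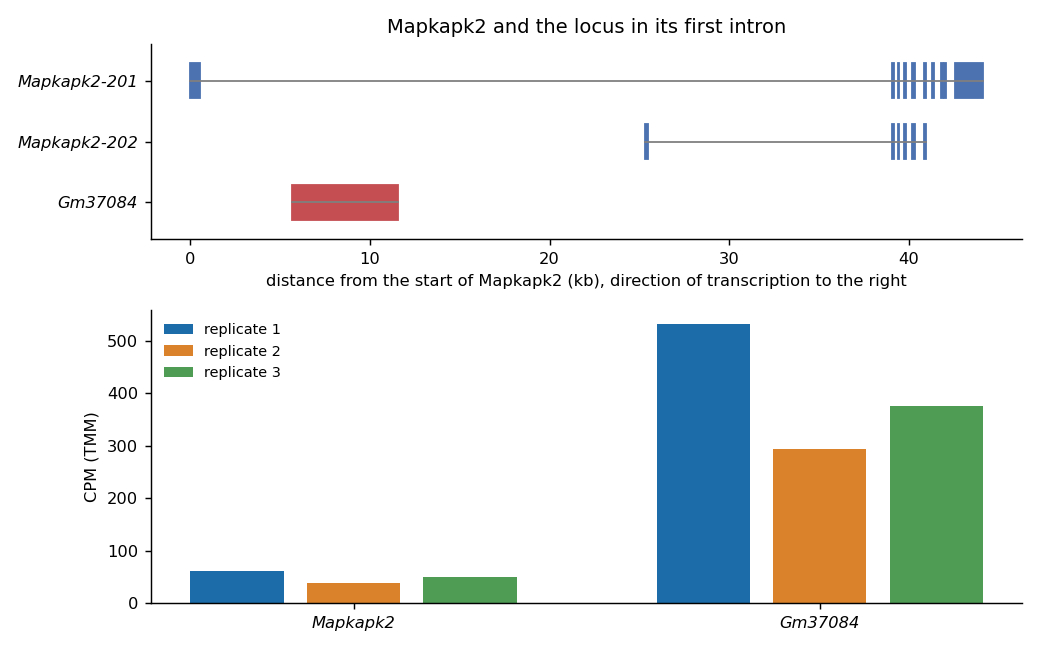
Top, exons of the 2 Mapkapk2 transcripts (blue) and the locus Gm37084 (red) by distance from the start of Mapkapk2 in kb. Bottom, CPM per library from 0. Gm37084 lies from 5677 to 11574 bases and has 532, 294 and 376 CPM in replicates 1, 2 and 3, against 60.2, 37.1 and 49.1 for Mapkapk2.

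The introns of Map2k1 hold Uchl4 and the long noncoding RNA Gm48855, both annotated on the opposite strand, with 15.7 ± 5.95 and 13.4 ± 2.45 TPM. Gm48855 had 417, 631 and 424 counts, close to the 463, 741 and 463 of Map2k1 itself. Whether the counting used strand is not given in the sources used here, so reads of the Map2k1 introns and of these genes cannot be told apart. A Mapk14 intron holds AC170998.1 at 7.22 ± 1.94 TPM, and Mapk8 introns hold 2 processed pseudogenes with at most 5.85 TPM. The small RNA genes Gm25549, in Mapkapk2, and Gm24106, in Map2k1, were listed at 0 in the gene table but at 243 to 395 and 82.3 to 241 TPM in the second. Mapk3, Mapk9, Map2k3, Map2k6 and Mapkapk3 overlap no annotated gene.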

How the data were processed

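Total RNA of the chromatin fraction was sequenced in 3 libraries of 1 group. Per the file headers, values refer to mm10 and GENCODE M21. Which programs made them is not stated. The authors' gene and first transcript tables hold expected counts, TPM, FPKM and TPM bounds. The authors' second transcript table holds estimated counts and TPM. The deposited TPM values are scaled for length, and the deposited FPKM values for length and library size.

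Expected counts of annotated genes were rounded and scaled by TMM in edgeR 4.0.16 (factors 1.03, 0.984 and 0.985) to log2 CPM with a prior count of 2. Other entries took 2.46, 0.484 and 0.327% of counts. DESeq2 1.42.0 size factors, other prior counts, FPKM and the second table were alternatives. TMM scaling was also run on simulated counts with known shifts. That check does not bear on differences between TPM and CPM or between the authors' tables. R 4.3.3, Python 3.11.15 and pandas 2.3.3 were used.

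Members and lists were chosen with earlier results of these data known. The text names all members, their paralogues, at most the 2 highest and the lowest gene of each list, and for 2 members the 3 genes nearest in pattern. Some genes that this rule takes are not reported here. Zfp36 and Dusp1 are the highest of their lists. Intervals cover counting error only.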

Additional observations from a re-analysis of the deposited data

How the results depend on the processing

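The median level of the 9 genes, 24.3 TPM, was 37.7 TPM in the second table, 40.1 CPM without scaling for length and 11.4 TPM on protein-coding transcripts only. It was 21.8 as FPKM, 24.4 after rescaling TPM over annotated genes, and 19.8 to 29.0 TPM with 1 library left out. The median range between libraries, 1.29-fold, was 1.12-fold without replicate 3 and 1.12 to 1.18-fold over the 3 sets of 2 libraries. With the same scaling, a range over 2 libraries cannot exceed the range over all 3. The median retained-intron share, 45.6% of TPM, was 31.5% of expected counts, and 44.8% to 46.5% with 1 library left out. Protein-coding transcripts led in 4 members, and in 3 to 6 with 1 library left out. On 1 TPM or more in every library, 8 members became 9 in the second table, and 94 pathway genes became 102. Over all 22028 protein-coding genes the number rose as well, from 9949 to 12381. The second table turned the order of Mapkapk3 over Mapkapk2 (ratio 1.47, then 0.917) and of Map2k1 over Mapkapk2 (log2 ratio 0.30, then -0.81). It also turned the majority Mapk9 exon by TPM (upstream 22.7% to 40.9% over libraries, then 50.6% to 73.5%). By counts of the second table the upstream share ran from 42.7% to 64.8%. The highest library of Mapk14 was replicate 3 in CPM, replicate 1 in TPM and replicate 2 in counts of the second table. No paired analysis was possible because there was 1 group. Map2k6, with 16 to 71 counts, is the member whose level depth limits most.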
